A study of Mus musculus with 11 samples.

Results

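The microRNAs miR-143 and miR-145 were followed while mouse embryonic fibroblasts (MEF) were reprogrammed to induced pluripotency. Their precursors are the table rows named Mir143 and Mir145, 2 of 3859 small RNA genes, and both rows were read in all 11 libraries. Each library was a different stage of cells labelled Mbd3f/-, meaning that Mbd3, which encodes part of the NuRD chromatin complex, had a floxed allele and a deleted one. Sampling covered uninduced MEF, each of days 1 to 8 of doxycycline, an induced pluripotent (iPSC) line that had been passaged, and embryonic stem cells (ESC), with 1 library per stage. The MEF carried a cassette that expresses Oct4, Klf4, Sox2 and Myc when doxycycline is given. The ESC library carries the same genotype label, but its column in the table is named for V6.5, which the series text also lists as a wild-type line, so its genotype is unclear.

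Per the labels, cells of MEF and of days 1 and 2 were grown without feeders. Cells of days 3 to 8 and of the iPSC and ESC lines were plated on irradiated human foreskin fibroblasts. The course began in serum at 5% oxygen, and inhibitors of MEK and GSK3 were added during it, at 48 hours in one label and on day 3.5 in another. Feeders, medium and the later days cannot be told apart. The mature forms of miR-143 and miR-145 are identical in mouse and human, so reads from human feeder cells and from mouse cells cannot be told apart either. In bulk RNA, fewer cells of a type and less RNA per cell cannot be told apart.

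miR-143 and miR-145 are made from a shared primary transcript. In smooth muscle this transcript is driven by serum response factor with myocardin, and both microRNAs hold smooth muscle cells in the contractile state. They are also abundant in fibroblasts and other mesenchymal cells. In human embryonic stem cells miR-145 is known to repress the mRNAs of OCT4, SOX2 and KLF4, which are factors of the reprogramming cassette, and in smooth muscle Klf4 and Elk1 are known targets of the pair.

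The sequences shown are those of the microRNAs whose levels followed Mir143 or Mir145 most closely, described further on, because they show which of these genes can share reads. All 10 such genes were found in RefSeq (GRCm38.p6), and Mir21 is Mir21a there. Capitals mark the seed, bases 2 to 8 from the 5′ end.
miR-21a-5p: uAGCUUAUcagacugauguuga
miR-181a-5p: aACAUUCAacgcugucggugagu
let-7i-5p: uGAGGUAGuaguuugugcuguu
miR-125b-5p: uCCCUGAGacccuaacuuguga
miR-29a-3p: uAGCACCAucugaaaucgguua
miR-574-3p: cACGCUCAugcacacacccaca
miR-199a-3p and miR-199b-3p: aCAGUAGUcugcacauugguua
These 7 mature forms have 7 different seeds. Mir181a-1 and Mir181a-2 give the same miR-181a-5p, and Mir199a-1, Mir199a-2 and Mir199b give the same 3p form, so the split of reads between such copies is uncertain.

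In the GENCODE annotation of build GRCm38, Mir143 (ENSMUSG00000065445) spans 63 nt on the minus strand of chromosome 18, from 61649196 to 61649258. Mir145 (ENSMUSG00000065592, named Mir145a there) spans 70 nt on the same strand, from 61647825 to 61647894. It begins 1301 bases downstream of Mir143. Both hairpins lie outside the annotated span of the long noncoding RNA gene Carmn, with Mir143 366 bases downstream of its annotated end. The gene listed as mmu-mir-145b, a separate hairpin on the same chromosome at 69022199 to 69022273, was listed at 0 in 10 libraries and at 35.5 FPKM on day 3.

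The values are FPKM, reads scaled to transcript length and to the mapped reads of the library. For short hairpins FPKM depends strongly on length, so the worth of 1 read was taken from low values of other genes of exactly 63 nt or 70 nt. At 63 nt 1 read was worth between 51.3 FPKM on day 7 and 96.9 in MEF, and at 70 nt between 38.5 and 72.6. Mir143 thus rested on 51895 to 450368 reads where it had a value, and Mir145 on 359 to 4819. The 95% counting error of a value was at most 0.861% for Mir143 and at most 10.5% for Mir145. It covers counting only, not the spread between cultures, which 1 library per stage cannot show. Summed over all genes the table held 136296000 FPKM on day 7 and 165140000 on day 8, and between 251945000 and 342448000 in the other libraries.

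Mir143 was among the most abundant small RNAs after induction and declined over the course. It stood at 40549900 FPKM on day 1, 19230200 on day 2, 19084900 on day 3 and 22448200 on day 4. It then stood at 14259000 on day 5, 11539500 on day 6, 7889970 on day 7 and 7360140 on day 8. The day 1 library was the highest, days 2 to 4 lay close together, and each later day was lower than the one before it in FPKM. In the pluripotent lines Mir143 was at 3927200 FPKM in iPSC and 17316200 in ESC. The iPSC line was thus below every day of the course, and the ESC line lay between days 3 and 5. On day 1 Mir143 ranked 1 by FPKM among all genes of the table, it ranked between 2 and 5 on the later days and 3 in ESC, but 23 in iPSC. As a share of the summed FPKM of the table it was 11.8% on day 1, between 4.28% and 7.22% on the other days, 1.31% in iPSC and 5.93% in ESC. The decline was not steady on this scale: the share was 5.00% on day 5, 4.28% on day 6, 5.79% on day 7 and 4.46% on day 8.

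In MEF, Mir143 was listed at 0. The same library held 349820 FPKM of Mir145, about 4819 reads, and the day 1 library held about 450368 reads of Mir143. The 0 was treated as a missing value, and no level or fold of Mir143 in MEF is given.

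Mir145 was far lower than Mir143 and did not decline evenly. It stood at 349820 FPKM in MEF, 187971 on day 1, 37886 on day 2 and 201314 on day 3. It then stood at 131231 on day 4, 96802 on day 5, 89602 on day 6, 61460 on day 7 and 51934 on day 8. MEF was the highest library, day 2 was the lowest of the course, and from day 3 each day was lower than the one before it in FPKM. As a share of the summed FPKM this order turned at day 7, with 0.0332% on day 6, 0.0451% on day 7 and 0.0314% on day 8. In the pluripotent lines Mir145 was at 20341 FPKM in iPSC and 89240 in ESC. The counting intervals of day 5 and day 6 overlapped, as did those of day 6 and ESC. All other neighbours in the order of levels had separate intervals, and so did all neighbours in the order of Mir143 levels. By FPKM Mir145 ranked 72 among all genes in MEF, 217 on day 2, 120 on day 3, 321 in iPSC and 191 in ESC.

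**Figure D1:**
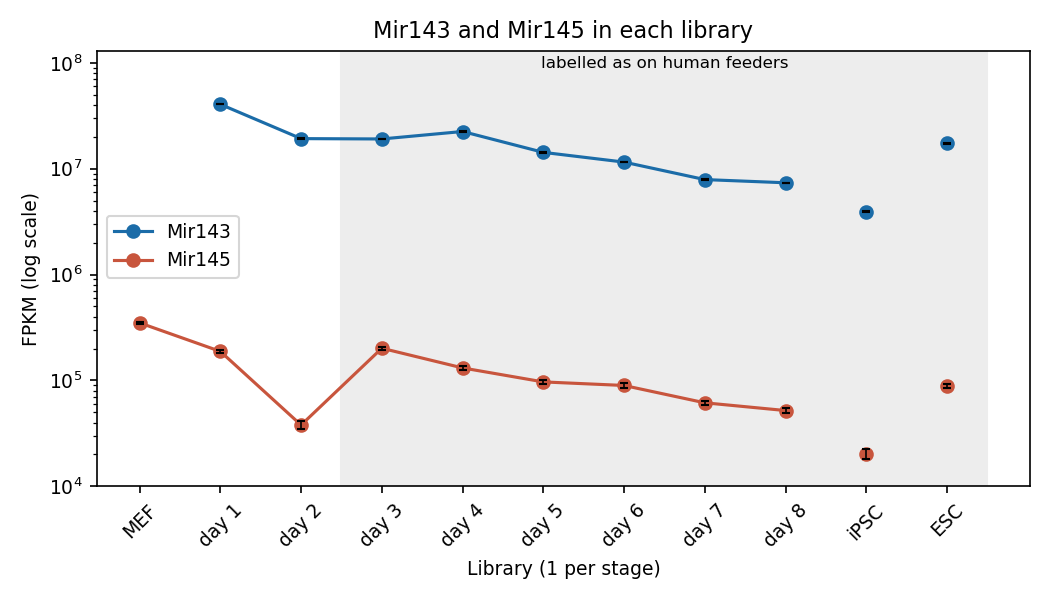
FPKM (log scale) of Mir143 and Mir145 in each of the 11 libraries, with 95% counting intervals in black; the MEF value of Mir143, listed at 0, is not drawn, and the grey area marks libraries labelled as on human feeders. Mir143 lies between 3927200 and 40549900 FPKM, Mir145 between 20341 and 349820, and the day 2 value of Mir145 is the lowest of the course.

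The trend over days 1 to 8 was fitted across 1419 transcripts with limma on log2(FPKM + 10). Of the 2 hairpins Mir143 fell, where 12.0% of all transcripts tested fell and 6.55% rose. Its slope was -0.32 ± 0.07 per day (log2, SE over 8 libraries; limma Benjamini-Hochberg adjusted p = 0.0189). The slope of Mir145 was -0.16 ± 0.13 per day (adjusted p = 0.402), with a 95% interval from -0.45 to 0.13. The median slope was -0.05 over all transcripts and -0.12 over the 895 microRNA transcripts, and 291 transcripts had a more negative slope than Mir143. On day 8 Mir143 was 5.51-fold lower than on day 1 and Mir145 3.62-fold lower, and the median of 431 microRNAs was 1.68-fold lower.

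These calls rested on single libraries and on the scaling. Mir143 kept its call in 5 of 8 fits that left out a day, and lost it without day 1 (adjusted p = 0.0502, slope -0.27), day 7 (0.054, -0.30) or day 8 (0.0614, -0.32). Scaled to the sum of microRNA FPKM in each library, its slope was -0.16 (adjusted p = 0.115). After quantile normalization it was -0.18 (adjusted p = 0.0807). Scaled to the median of transcripts above 0 in every library, Mir143 kept its call, with a slope of -0.34 (limma adjusted p = 0.0107). The scaling to microRNAs moved the median slope of all transcripts by 0.11, and relative to that median Mir143 stood at -0.23, against -0.27 with FPKM as deposited. After quantile normalization it stood at -0.18 relative to the median. Without day 2 alone Mir145 fell too, with a slope of -0.30 ± 0.07 (adjusted p = 0.0421). With MEF added as day 0, the slope of Mir145 was -0.24 ± 0.11 (adjusted p = 0.152).

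**Figure D2:**
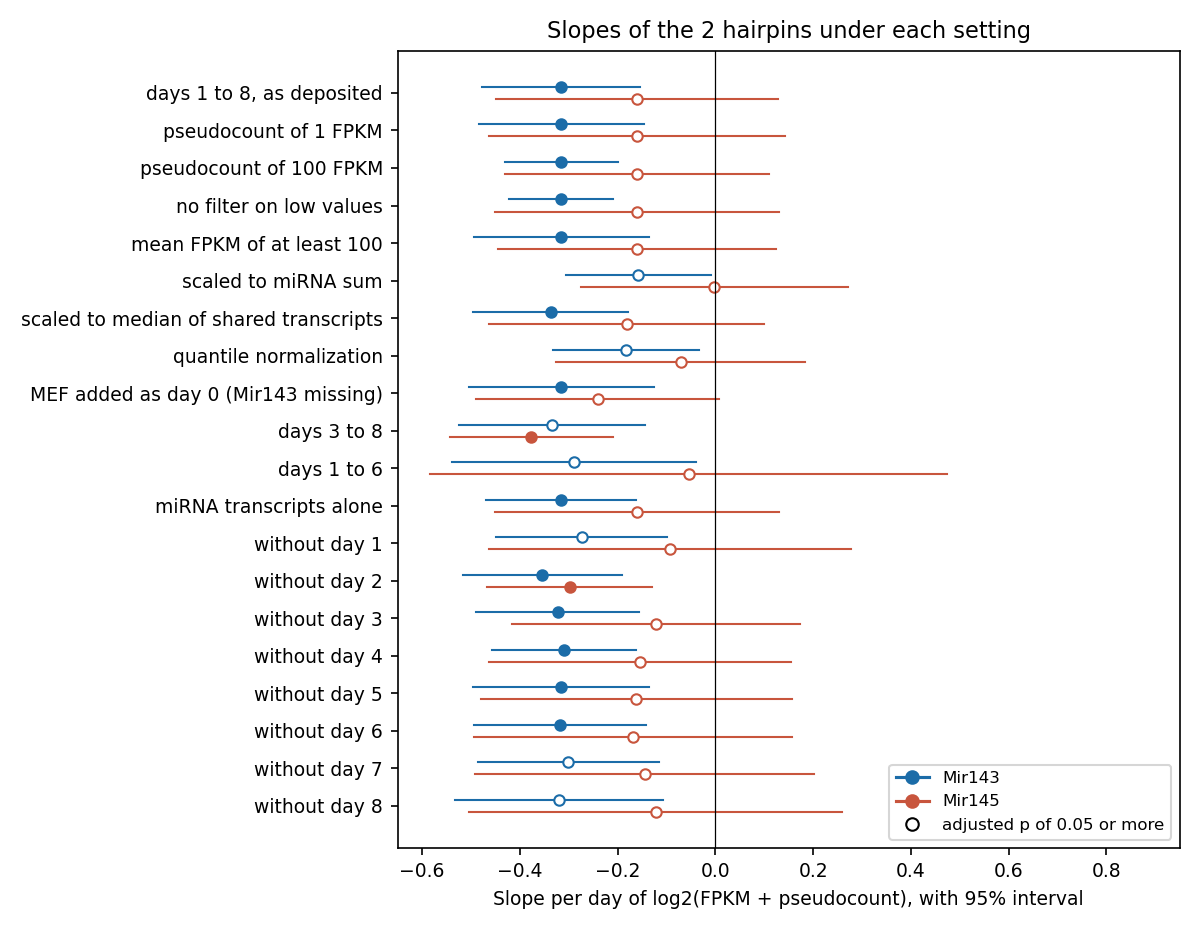
Slope per day of log2 FPKM for Mir143 and Mir145 under each setting, with 95% intervals from limma; filled points have an adjusted p under 0.05 and open points do not; the setting with MEF as deposited is not drawn. The points of Mir143 lie between -0.35 and -0.16, and those of Mir145 between -0.38 and -0.0020, with filled points for Mir145 in days 3 to 8 and without day 2.

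Within days 3 to 8, all labelled as on feeders, both hairpins had negative slopes. The slope of Mir143 was -0.33 ± 0.08 per day (adjusted p = 0.0517) and that of Mir145 was -0.38 ± 0.07 (adjusted p = 0.0382), over 6 libraries. The median slope of all transcripts was -0.10. Both fits used FPKM as deposited and were not repeated on rescaled values, and the table sum was lower on days 7 and 8. As a share of that sum, Mir145 was at 0.0726% on day 3, 0.0332% on day 6, 0.0451% on day 7 and 0.0314% on day 8. On day 8 Mir143 was 2.59-fold lower than on day 3 and Mir145 3.88-fold lower, and the median of 436 microRNAs was 2.03-fold lower. Levels of the hairpins, as log2(FPKM + 10), were correlated over these 6 days, with Pearson's r = 0.917 (exact permutation p = 0.0139, adjusted over 2 relations 0.0278) and Spearman's rho = 0.943 (exact permutation p = 0.0167, adjusted 0.0333). Over all 8 days r was 0.625 (exact permutation p = 0.0985, adjusted 0.185) and rho 0.524 (exact permutation p = 0.197, adjusted 0.197). Without days 1 and 8, the libraries farthest from the median of Mir143, r was 0.328, and without day 2 it was 0.907 (exact permutation p = 0.00595, adjusted 0.0119). Both hairpins share the scaling of each library. These correlations were not repeated on values scaled to microRNAs or by quantiles, so the part of the scaling in them was not tested.

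The ratio of the hairpins was uneven at the start and steadier later. Mir145 was at 0.464% of the FPKM of Mir143 on day 1, 0.197% on day 2 and 1.05% on day 3. It was at 0.585% on day 4, 0.679% on day 5, 0.776% on day 6, 0.779% on day 7 and 0.706% on day 8. It was at 0.518% in iPSC and 0.515% in ESC. Day 2 was the lowest and day 3 the highest of these 10 libraries, and the intervals of both were clear of all others. In reads, about 380 of Mir143 came with each read of Mir145 on day 2 and about 71.0 on day 3.

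A trend of this ratio with day did not pass its test over all 8 days. Pearson's r of the log2 ratio with day was 0.520 over 8 libraries (exact permutation p = 0.185, two-sided, adjusted 0.185) and Spearman's rho was 0.548 (exact permutation p = 0.171, adjusted 0.197). Without days 1 and 8, the ends of the day axis, r was 0.558. Within days 3 to 8 r was -0.275 (exact permutation p = 0.636). Without day 3 rho was 0.857 (exact permutation p = 0.0238, adjusted 0.0476), past the threshold, and r was 0.731 (exact permutation p = 0.0548, adjusted 0.110).

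**Figure D3:**
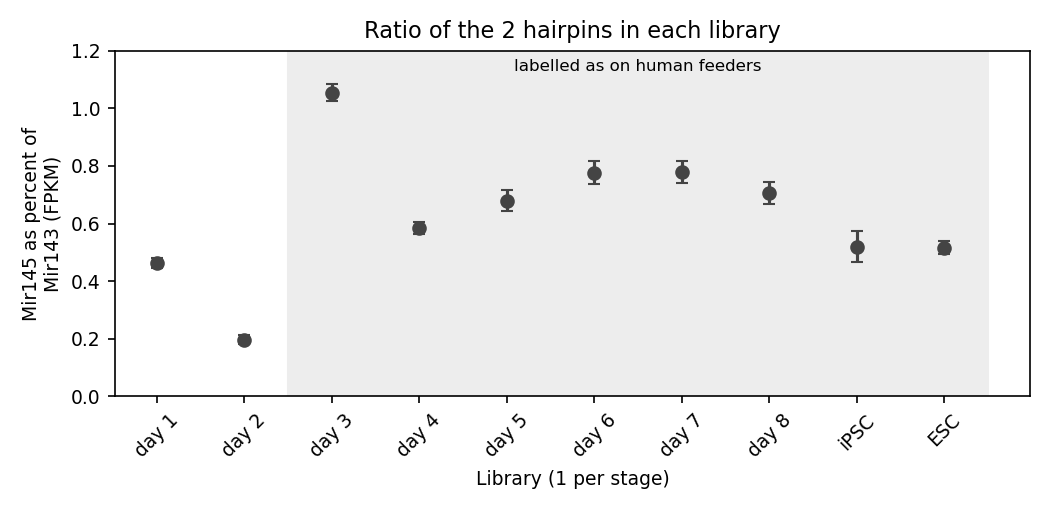
Mir145 as a percentage of Mir143, both in FPKM, in the 10 libraries in which Mir143 had a value, with 95% counting intervals; the grey area marks libraries labelled as on human feeders. Day 2 lies at 0.197% and day 3 at 1.05%, and the other 8 libraries lie between 0.464% and 0.779%.

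The steps around day 2 set the hairpins apart. Mir145 was 4.96-fold lower on day 2 than on day 1 (95% counting interval 4.55 to 5.41), and Mir143 was 2.11-fold lower (2.10 to 2.12). The median microRNA of 429 compared was 1.27-fold higher on day 2. Only Mir133a-1 and Mir133a-2, of striated muscle, Mir490 and Mir574 were further down than Mir145 at this step. By name Mir133a-1 and Mir133a-2 are copies of miR-133a and are not separate observations. On day 3 Mir145 was 5.31-fold higher than on day 2 (4.89 to 5.78), while Mir143 was at 0.992 of its day 2 level and the median of 433 microRNAs was 1.01-fold higher. The microRNAs further up than Mir145 at this step were Mir100, Mir490, Mir539, Mir574 and Mir654. These genes were named after their values were seen.

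Feeders were first present, per the labels, on day 3, and their part in the higher level of Mir145 cannot be told apart from that of the day. Of the fibroblast and mesenchymal list, 4 of 5 members with over 1 FPKM were higher on day 3 than on day 2. Its miR-199 genes give the same 3p form, and its summed level was 0.886 of that on day 2. The median of 433 microRNAs was 1.01-fold higher at this step. In other lists, 10 of 12 pluripotent, 4 of 6 other vascular smooth muscle and 3 of 5 epithelial members were higher on day 3. So were 2 of 4 pluripotency factor repressors, 1 of 4 blood cell, 0 of 4 striated muscle and 0 of 1 endothelial members. The other steps of the hairpins were smaller. Mir145 was 1.53-fold lower on day 4 than on day 3, where Mir143 was 1.18-fold higher, and on day 7 Mir143 was 1.46-fold lower than on day 6 and Mir145 1.46-fold lower. The median of 440 microRNAs was 2.35-fold lower at the day 7 step.

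**Figure D4:**
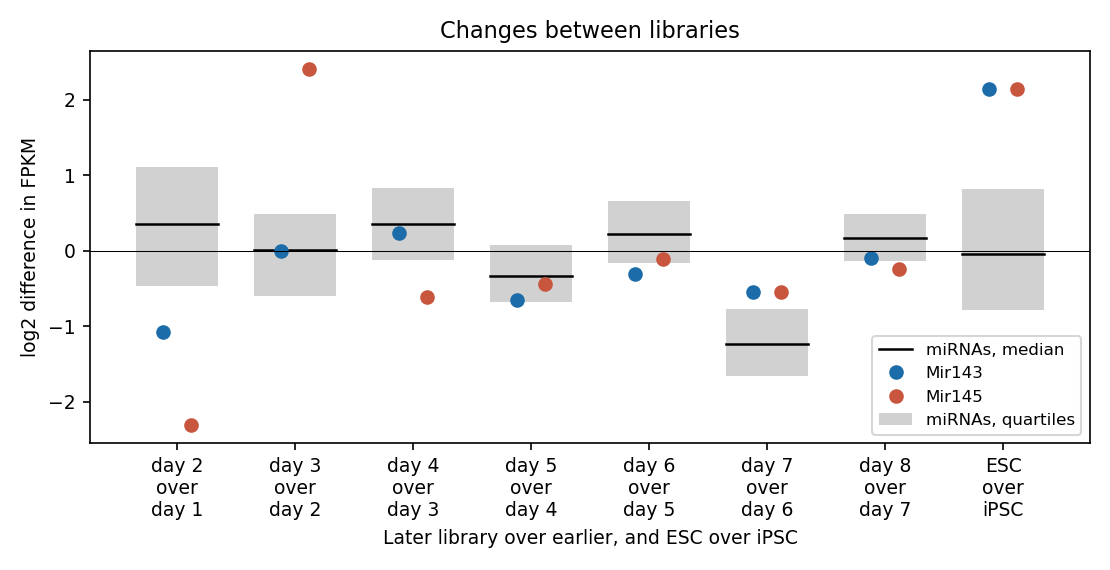
log2 difference in FPKM between neighbouring days, the later over the earlier, and of ESC over iPSC, for Mir143 and Mir145; grey boxes span the quartiles of microRNAs with a mean of at least 1000 FPKM and the black lines are their medians. Mir145 lies at -2.31 for day 2 over day 1 and at 2.41 for day 3 over day 2, where Mir143 lies at -1.08 and -0.01.

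The pluripotent lines differed from each other by nearly the same factor in both hairpins. Mir143 was 4.41-fold higher in ESC than in iPSC (95% counting interval 4.37 to 4.45), and Mir145 was 4.39-fold higher (3.92 to 4.91). The median of 438 microRNAs was at 0.970 of its iPSC level in ESC, and 23 of them were further up than Mir143. With 1 library of each line there is no replicate check. All 5 fibroblast and mesenchymal microRNAs with over 1 FPKM were also higher in ESC than in iPSC, though the miR-199 genes among them give the same 3p form. Their summed levels were 8893800 FPKM in ESC and 2050700 in iPSC, a 4.34-fold difference. Most of both sums was Mir21, at 7054880 FPKM in ESC and 1929470 in iPSC. The members did not share 1 factor, as Mir199a-1 differed more, at 1197780 FPKM in ESC and 79285 in iPSC. All 6 other microRNAs of vascular smooth muscle and all 5 epithelial ones were higher in ESC too, at 1.52-fold and 1.85-fold in sum, and so was the endothelial Mir126. Other lists went the other way in sum. Of striated muscle microRNAs 0 of 3 were higher in ESC (0.430 of the iPSC sum), of pluripotency factor repressors 0 of 4 (0.0964), and of blood cell ones 2 of 4 (0.374). Most of the repressor sum in iPSC was Mir470, at 4871230 FPKM against 251903 in ESC. Mir134 and Mir34a differed less, at 107216 and 148358 FPKM in iPSC and 100201 and 104447 in ESC. Of pluripotent ones 4 of 11 were higher, with summed levels of 17967000 FPKM in ESC and 21923000 in iPSC. All these list counts stand beside the median of 0.970 over 438 microRNAs. Mir21 is counted in both the fibroblast and the smooth muscle list, and Mir26a-1 and Mir26a-2 are by name copies of miR-26a. Both lines were labelled as on human fibroblasts, whose share in each library was not tested.

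Against day 8, the iPSC library had less of both hairpins and the ESC library had more in FPKM as deposited. Mir143 was 1.87-fold lower in iPSC than on day 8 and Mir145 2.55-fold lower, where the median log2 difference of microRNAs was 1.14. The size of the iPSC differences depended on the scaling: the log2 difference of Mir143 was -0.91 as deposited, -1.70 scaled to microRNAs and -2.16 after quantile normalization, and that of Mir145 was -1.35, -2.14 and -2.64. In ESC, Mir143 was 2.35-fold higher than on day 8 and Mir145 1.72-fold higher, where the median was 1.88-fold higher. Scaled to microRNAs these log2 differences were 0.46 and 0.0036, against 1.23 and 0.78 as deposited. The direction for Mir145 in ESC turned after quantile normalization, with a log2 difference of -0.25. Against day 1 both hairpins were lower in both lines. Mir143 was 10.3-fold lower in iPSC and 2.34-fold lower in ESC, and Mir145 was 9.24-fold and 2.11-fold lower. Against MEF, Mir145 was 17.2-fold lower in iPSC, 3.92-fold lower in ESC and 6.74-fold lower on day 8.

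The microRNAs most like Mir143 across the 10 libraries other than MEF were Mir21, the miR-181a genes, Mirlet7i and Mir125b-2. Among 413 microRNA genes above 0 in all 10 and with a mean of at least 1000 FPKM, Pearson's r of log2(FPKM + 10) was highest for Mir21, an abundant microRNA of fibroblasts, at 0.963. It was 0.960 for both Mir181a-2 and Mir181a-1, 0.949 for Mirlet7i, of the differentiation-associated let-7 family, and 0.926 for Mir125b-2. Mir21 stood at 18102000 FPKM on day 1, 2673370 on day 8, 1929470 in iPSC and 7054880 in ESC. Mir145 itself ranked 37 in likeness to Mir143, with r = 0.787. These values describe shapes over 10 libraries that share the same course, depth and scaling, and they carry no test.

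For Mir145 the nearest were Mir29a, known for repressing collagen mRNAs (r = 0.898), Mir574 (0.893) and the miR-199 genes Mir199a-1 (0.855), Mir199b (0.852) and Mir199a-2 (0.847), which are markers of mesenchymal cells. Mir143 ranked 12. Mir574 also dipped, with 43689 FPKM on day 1, then 8408 on day 2 and 54858 on day 3, and it stood at 3342 in iPSC and 13878 in ESC. Mir29a had 198373 FPKM in the day 1 library, 111674 in that of day 2 and 246483 in that of day 3. For Mir199a-1 the values of days 1, 2 and 3 were 3825850, 1217590 and 1748780 FPKM. All 5 were lower on day 2 than on days 1 and 3. They were picked for likeness to Mir145 over these same libraries, so the shared dip follows in part from the choice. The miR-199 genes among them give the same 3p form and are not separate observations.

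**Figure D5:**
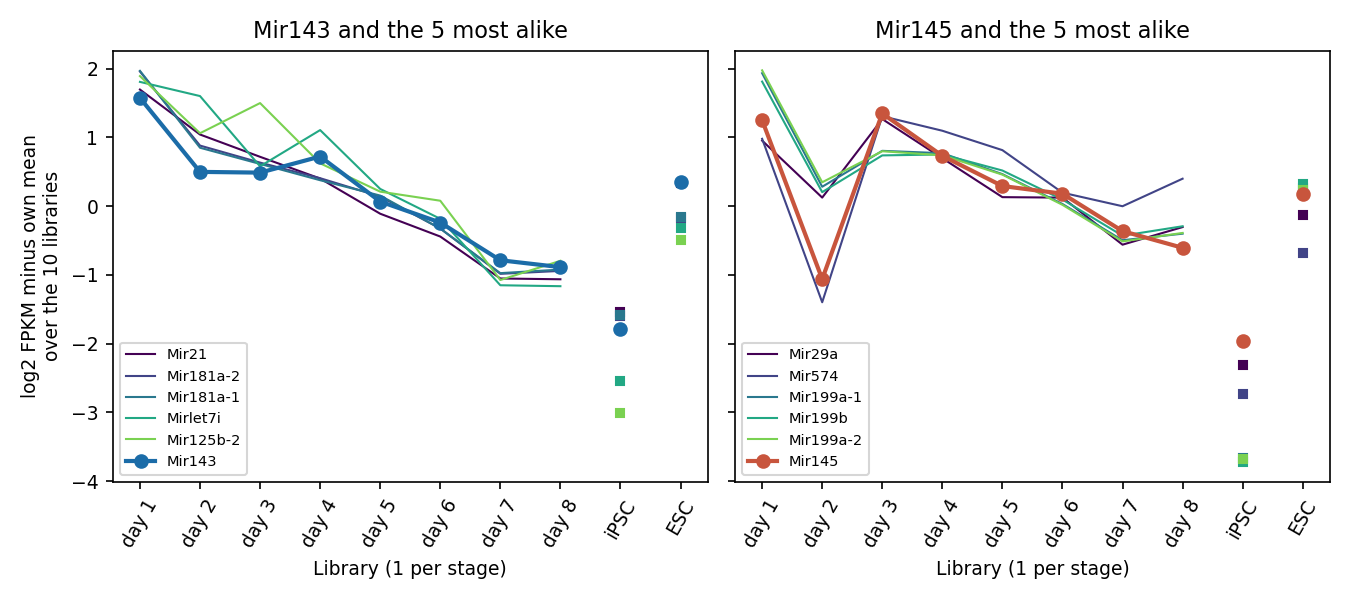
log2 FPKM minus each gene's own mean over 10 libraries for Mir143 (left) and Mir145 (right), each with the 5 microRNA genes of highest correlation; lines join the days of the course and separate points are the iPSC and ESC lines. Of the curves on the left, Mir125b-2 is higher on day 3 (840227 FPKM) than on day 2 (620003) and the other 5 are not, and those on the right dip on day 2 and are higher on day 3.

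Other microRNAs of mesenchymal cells and smooth muscle were set beside the pair, and all counts are read against 12.0% falling and 6.55% rising over all transcripts, 158 falling and 52 rising of 895 microRNA transcripts, and a median slope of -0.05. In the fibroblast and mesenchymal list 3 of 5 tested members fell over days 1 to 8 and 0 rose, with a median slope of -0.28. Its members Mir199a-1, Mir199a-2 and Mir199b give the same 3p form, so they are not separate counts. Mir21 fell by 0.40 ± 0.06 per day (adjusted p = 0.00455), and the slope of Mir199a-1 was -0.27 ± 0.08 (adjusted p = 0.0533). Among 6 other microRNAs known to act in vascular smooth muscle, 1 fell and 0 rose, a share near that of all microRNA transcripts, and the median slope was 0.02. The one that fell was Mir21, which both lists hold, and the abundant Mir26a-2 had a slope of 0.08 ± 0.10 (adjusted p = 0.607). By name Mir26a-1 and Mir26a-2 are copies of miR-26a, so they are not separate counts.

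Of 5 striated muscle microRNAs 4 fell and 0 rose, with a median slope of -0.91. Its members Mir133a-1 and Mir133a-2 are by name copies of miR-133a, so they are not separate counts. Mir133a-1 stood at 11374 FPKM on day 1, 2120 on day 2, 625 on day 3 and 65.9 on day 8, and was lower on day 3 than on day 2. Of 4 microRNAs known to repress pluripotency factors other than miR-145, Mir470 rose by 1.14 ± 0.11 per day (adjusted p = 0.00109) and 0 fell. Mir470 is known for this role in mouse cells.

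Lists of other cell types were also read. Of 12 microRNAs of pluripotent cells, 10 rose and 0 fell over days 1 to 8, with summed levels of 21449 FPKM in MEF, 46912000 on day 8, 21923000 in iPSC and 17967000 in ESC. Mir295 of this list made up 31201600 FPKM of the day 8 sum and was listed at 0 in iPSC and ESC, so the sums of the lines lack it. Of 5 epithelial ones 4 rose and 0 fell, and of 6 blood cell ones 2 fell and 0 rose, again beside 6.55% rising and 12.0% falling over all transcripts. The blood cell list summed to 777880 FPKM in iPSC, its highest level, and to 291310 in ESC. The endothelial Mir126 neither rose nor fell, with a slope of 0.12 (adjusted p = 0.385). The fibroblast and mesenchymal list summed to 24858000 FPKM in MEF, 3852700 on day 8, 2050700 in iPSC and 8893800 in ESC. Its member Mir22 was below 1 FPKM in all libraries and was not tested, and the part of these cells in the results was not tested.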

How the data were processed

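Per the labels' protocols, total RNA went into TruSeq libraries of small RNA, which were cut to size on gels, and 11 libraries were sequenced. The authors deposited FPKM values, with 11 columns and 0 belonging to other samples. Listed without roles in the submitters' processing notes are mm10 as build, Cufflinks 2.2.1, Bowtie2 2 and CASAVA 1.8.2. For the annotation and for reads that match several loci, the treatment is not given in the sources used here. Of 3859 gene IDs, 3712 were found in GENCODE vM21.

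Transcripts with a mean of at least 10 FPKM were fitted as log2(FPKM + 10) with limma 3.58.1 in R 4.3.3 over days 1 to 8 (two-sided, Benjamini-Hochberg, threshold 0.05; 6 residual and 2.09 prior degrees of freedom). The 10 FPKM added before the log2 understates changes of low genes. The fit was also run on simulated data with independent noise of equal size in every library. These libraries differ in scaling, so that run does not check the calls made here. MEF was left out because its Mir143 value was treated as missing. The worth of 1 read was the step of low values at 63 nt and 70 nt, the 63 nt step being searched within a range set from the 70 nt one. Of 103 and 90 low values, 86 and 74 were whole multiples of it within 0.3%, and the same values set it. Its ratio between the lengths was 1.34 in every library. Reads of abundant genes could not be recovered as exact whole numbers this way, so no count test was run. Correlations have exact permutation tests (scipy 1.17.1).

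The members, lists and tests were chosen with earlier results of these data known. Named genes are the 5 microRNAs most correlated with each hairpin and the most abundant members of each list. Mir1a-2, Mir24-1, Mir126b and Mir142b of the lists were not matched by name.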

Additional observations from a re-analysis of the deposited data

How the results depend on the processing

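The slope of Mir143 kept its sign in every alternative but the one with MEF as deposited, where the value listed at 0 gave 1.15 (adjusted p = 0.303). Its call was lost when scaled to microRNAs (-0.16), after quantile normalization (-0.18), within days 3 to 8 (-0.33) and within days 1 to 6 (-0.29, adjusted p = 0.123). It was kept when scaled to the median of shared transcripts (-0.34, limma adjusted p = 0.0107). Leaving out 1 day gave -0.35 to -0.27. The slope of Mir145 was below 0 in every alternative, but only just when scaled to microRNAs (-0.0020, adjusted p = 0.999). It was -0.07 after quantile normalization (adjusted p = 0.692). Mir145 was called within days 3 to 8 (-0.38) and without day 2, both with FPKM as deposited. Leaving out 1 day gave -0.30 to -0.093. Fits with fewer libraries have fewer degrees of freedom, and calls were both lost and gained among them. The cause of these changes was not tested.

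Of all transcripts, 170 fell and 93 rose. Leaving out 1 day gave 88 to 159 falling and 55 to 96 rising. When scaled to microRNAs 96 fell and 219 rose, within days 3 to 8 80 fell, and within days 1 to 6 62 fell. After quantile normalization 141 rose, among microRNAs alone 60, with MEF added and Mir143 missing 178, and with MEF as deposited 177.

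The ratio with day had r = -0.275 within days 3 to 8 and 0.365 to 0.731 with 1 day left out. The correlation of the hairpins was 0.917 within days 3 to 8 and 0.463 to 0.907 with 1 day left out.

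The log2 differences of the lines are given as scaled to microRNAs, to the median of shared transcripts and by quantiles. Mir143 was at -3.08, -3.81 and -3.77 in iPSC against day 1, -0.93, -2.05 and -1.12 in ESC against day 1, -1.70, -1.14 and -2.16 in iPSC against day 8, and 0.46, 0.62 and 0.49 in ESC against day 8. Mir145 was at -2.92, -3.65 and -3.83 in iPSC against day 1, -0.77, -1.90 and -1.44 in ESC against day 1, -2.14, -1.59 and -2.64 in iPSC against day 8, and 0.0036, 0.17 and -0.25 in ESC against day 8.

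No paired analysis was possible because each stage had 1 library. Counting error limits Mir145 most in iPSC, with 359 reads.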
